A study of Arabidopsis thaliana with 12 samples.

Results

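The response of phod2 seedlings to the phosphate condition was described by setting 3 libraries labelled P- against 3 labelled P+, which are 6 of the 12 libraries of the series. Members were the 6 count columns whose headings join a replicate number, the condition and phod2, and all 32833 genes of the table entered, of which 20891 had enough counts to be tested. Both groups were RNA sequencing libraries of whole Arabidopsis thaliana seedlings, 8 days old and of the same genotype, so that the condition was the only labelled difference between them. The remaining 6 libraries came from seedlings labelled KC under the same pair of conditions, and serve here only to show where the response in phod2 differed. The condition was read as phosphate supply (the extraction protocol speaks of HP and LP) because the series title concerns phosphate homeostasis and LIP1p, a plastidial lipoyl synthase. The labels give neither a phosphate concentration, the length of the treatment nor the hour of harvest, and they state neither the lesion in phod2 nor whether it is a line of 1 allele. They leave KC unexplained, and in the table the P+ columns of KC bear the heading WT, so a comparison with KC includes any difference between such lines. The design text counts 3 biological replicates per genotype.

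Plants take up phosphate through PHT1 transporters of the root plasma membrane and move it to the shoot through PHO1. When phosphate is scarce, transcription factors of the PHR1 family, which are otherwise held back by SPX proteins bound to inositol pyrophosphates, activate genes through a promoter element named P1BS. The known targets encode transporters, secreted phosphatases and ribonucleases that free phosphate from organic matter, and enzymes that replace phospholipids by galactolipids and sulfolipids. Bypass enzymes of respiration and glycolysis that need no phosphate or adenylates, anthocyanin synthesis and longer root hairs belong to the same response.

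Counts summed to between 17266810 and 22104062 in the 6 phod2 libraries. Between replicates, log2 levels correlated across genes at 0.9926 to 0.9933 in P+. In P-, replicates 1 and 3 correlated at 0.9937, whereas replicate 2 correlated with them at 0.9787 and 0.9777 and departed from both with gene length (Spearman's rho -0.69 over genes, as a description, since genes are no replicates). The calls of named genes that change without this library, and list counts that do, are given both ways, and its effect over all genes is described near the end. Levels below are CPM, counts scaled to library size with TMM factors, fold changes are log2 values of P- minus P+ with their standard error (SE) from edgeR's quasi-likelihood test, and n was 3 libraries in each group throughout.

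A gene was called when its Benjamini-Hochberg adjusted p was at most 0.05 and its change at least 2-fold. Of 20891 genes tested, 24.4% were called, 14.1% as higher and 10.3% as lower in P-, that is 2945 and 2157 genes. The median log2 change over all genes tested was 0.0086, and the middle 50% of genes lay between -0.48 and 0.57. Changes of at least 4-fold were called for 975 genes that rose and 605 that fell, changes of at least 16-fold for 183 and 87, and changes of at least 32-fold for 86 and 43. The 3 values of P- lay entirely outside the range of P+ for 14537 genes, 69.6% of those tested, and for 5049 of the 5102 called. Genes that rose took 5.54% to 5.63% of the counts in the P+ libraries and 18.3% to 19.3% in the P- libraries. Genes that fell took 16% to 16.1% in P+ and 3.98% to 4.55% in P-. Because whole seedlings were sequenced, fewer cells of a type and less RNA per cell cannot be told apart in any of these values.

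**Figure D1:**
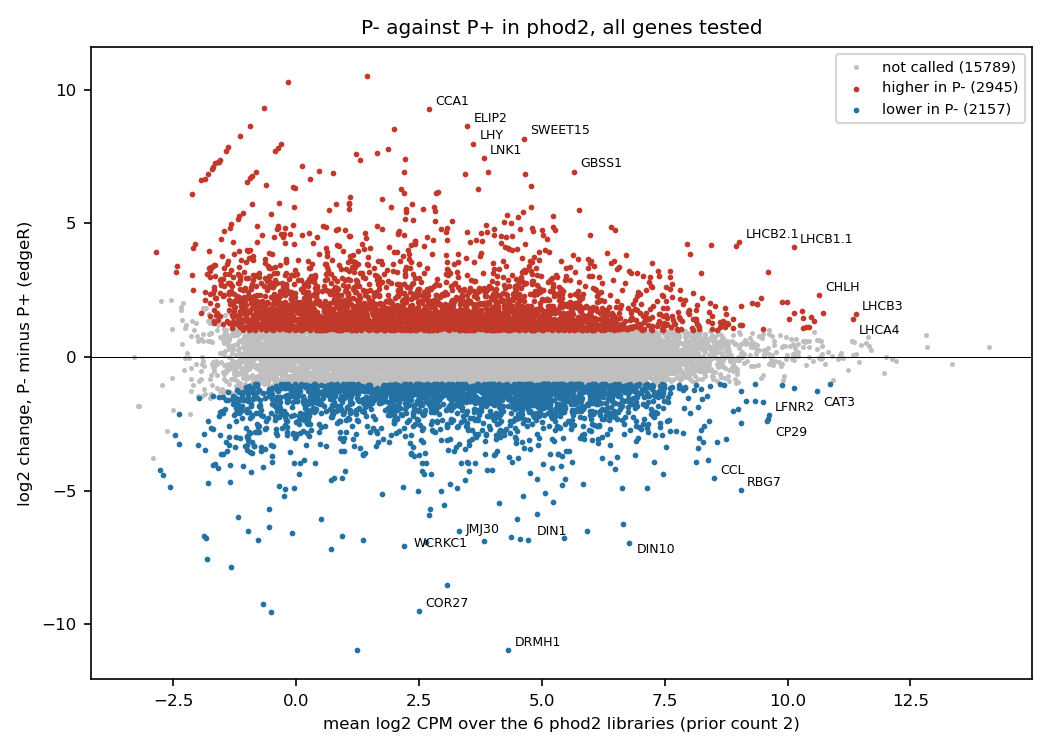
Fitted log2 change between P- and P+ in phod2 (y axis) against the mean log2 CPM over the 6 phod2 libraries (x axis), 1 point per gene tested. The 2945 genes called higher are red and the 2157 called lower are blue, and the symbols mark genes named by size of change or by change in level.

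LIP1P (AT5G08415, chromosome 5, 2710781 to 2713255, minus strand), the lipoyl synthase of the series title, inserts sulfur into the octanoyl group that becomes the lipoyl cofactor of plastid pyruvate dehydrogenase. It stood at 20.8, 21.4 and 19.4 CPM in the P+ libraries and 12.9, 14.4 and 14.2 CPM in the P- libraries. The groups did not overlap, and the log2 difference was -0.57 ± 0.073 with an adjusted p of 8.29e-06 in edgeR's quasi-likelihood test, which is under 2-fold, so it was not called. The octanoyltransferase gene LIP2P, which provides the octanoyl group in plastids, stood at 15.2, 15.9 and 14.7 CPM in P+ and 2.72, 2.94 and 3.03 CPM in P- and fell by 2.4 ± 0.098. GDCH2, which encodes a lipoyl-carrying subunit of glycine decarboxylase, stood at 27.9, 32.2 and 26.6 CPM in P+ and 65.0, 94.2 and 66.6 CPM in P- and rose by 1.38 ± 0.12, with its highest value in P- replicate 2. These were the calls among 17 tested genes of lipoate synthesis and lipoyl enzymes, 1 higher and 1 lower, beside a list median of -0.0043. The called share of this list was 11.8%, against 24.4% of all genes tested. The 19 tested genes of plastid fatty acid synthesis, which uses the product of plastid pyruvate dehydrogenase, had a list median of 0.038 and a summed level of 2236 to 2288 CPM in P+ and 2154 to 2292 CPM in P-, so that the groups overlapped.

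Phosphate sensing and signalling genes moved in both directions. Of 25 tested, 9 were called higher and 4 lower (10 and 4 without P- replicate 2), with a list median of 0.49. SPX3 (AT2G45130, chromosome 2, 18606410 to 18607853, plus strand), which encodes an SPX protein that restrains PHR1, stood at 0.990, 1.56 and 0.985 CPM in the P+ libraries and 38.1, 49.3 and 35.2 CPM in the P- libraries. All 3 P- libraries lay far above all P+ libraries, and the change was 5.11 ± 0.18 with an adjusted p of 6.76e-12 in edgeR's test. Its relative SPX1 (AT5G20150, chromosome 5, 6802282 to 6803655, plus strand) stood at 55.9, 51.8 and 54.2 CPM in P+ and 472, 566 and 464 CPM in P- and rose by 3.21 ± 0.086, with P- replicate 2 the highest library for both genes. SPX2 rose by 1.67 ± 0.070. SPX4, whose protein is cytosolic, fell by 1.08 ± 0.12. The miR399-sequestering noncoding RNA IPS1 (AT3G09922, chromosome 3, 3050989 to 3051530, plus strand) stood at 4.53, 3.17 and 5.42 CPM in P+ and 88.8, 131 and 88.2 CPM in P-, without overlap between the groups, and its paralog AT4 rose by 3.01 ± 0.10. Their indirect target PHO2, a ubiquitin-conjugating enzyme that removes PHO1 and PHT1 proteins, had a log2 difference of 0.92 ± 0.17 and was not called, although it was called at 1.21 without P- replicate 2.

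The ubiquitin ligase gene NLA, which acts on PHT1 proteins, fell by 1.44 ± 0.11. Among WRKY regulators of phosphate genes, WRKY45, an activator of PHT1;1, rose by 2.12 ± 0.19, WRKY6 rose by 1.12 ± 0.071 and WRKY42, a repressor of PHO1, fell by 1.43 ± 0.26. WRKY75 differed by 0.91 ± 0.20 and was not called. PHR1 itself differed by -0.06 ± 0.076 and was not called. The kinase gene AT3G01310, of the family that makes inositol pyrophosphates, fell from 194 ± 1.89 to 22.2 ± 5.43 CPM, a log2 change of -3.12 ± 0.13. ALMT1, a root malate channel, rose by 2.04 ± 0.097.

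The promoters of SPX3 and of some of the most changed genes described below are shown because they hold the element through which PHR1-type factors act, or, in FKF1, the element of evening-phased clock genes. Each is the 300 bases before the gene start of the RefSeq annotation of assembly TAIR10.1, written 5′ to 3′ on the strand of the gene, from chr2:18606110-18606409 (plus strand), chr5:2576820-2577119 (minus), chr1:19716102-19716401 (plus) and chr1:25508339-25508638 (plus). Capitals mark P1BS, searched as GNATATNC, in the first 3 and the evening element, searched as AAAATATCT on both strands, in the last.
SPX3: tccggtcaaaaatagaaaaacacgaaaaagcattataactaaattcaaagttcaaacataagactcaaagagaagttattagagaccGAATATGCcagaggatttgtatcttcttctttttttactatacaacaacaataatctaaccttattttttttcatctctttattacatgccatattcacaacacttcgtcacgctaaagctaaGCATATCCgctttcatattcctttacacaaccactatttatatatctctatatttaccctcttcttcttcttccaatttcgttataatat
GDPD6: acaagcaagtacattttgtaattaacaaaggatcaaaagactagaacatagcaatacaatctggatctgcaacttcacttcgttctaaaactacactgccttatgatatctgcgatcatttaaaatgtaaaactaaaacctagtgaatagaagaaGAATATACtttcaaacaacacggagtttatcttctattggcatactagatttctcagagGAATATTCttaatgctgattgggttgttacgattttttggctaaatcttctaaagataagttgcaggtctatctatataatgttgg
PAP5: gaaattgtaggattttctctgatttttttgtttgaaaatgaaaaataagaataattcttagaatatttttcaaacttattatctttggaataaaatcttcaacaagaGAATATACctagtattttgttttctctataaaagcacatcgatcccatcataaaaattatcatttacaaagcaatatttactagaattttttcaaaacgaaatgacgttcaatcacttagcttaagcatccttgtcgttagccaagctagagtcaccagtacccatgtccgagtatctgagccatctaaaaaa
FKF1: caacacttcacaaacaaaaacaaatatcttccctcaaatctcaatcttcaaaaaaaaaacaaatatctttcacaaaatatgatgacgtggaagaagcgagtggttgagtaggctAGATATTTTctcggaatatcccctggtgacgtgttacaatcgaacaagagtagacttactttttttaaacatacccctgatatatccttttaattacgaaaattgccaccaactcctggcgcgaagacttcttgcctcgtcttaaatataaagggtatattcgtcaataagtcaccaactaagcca
SPX3 and GDPD6 hold 2 P1BS matches each, SPX3 at 90 and 213 bases before the gene start and GDPD6 at 86 and 145. PAP5 holds 1 match, 193 bases before the start. FKF1 holds 1 evening element, 186 bases before the start. Its window also holds 2 P1BS matches, at 32 and 173 bases before the start, which are not marked.

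Over the 20798 tested genes with a window, 6.6% held P1BS, against 8.97% of the genes called higher and 6.82% of those called lower. The share was 13.4% among genes that rose at least 8-fold (53 of 396). Among members of the sensing, transport, phosphatase and lipid lists, 34.6% of those called higher held it (18 of 52), and 11.4% of those not called higher (4 of 35). The evening element stood in 2.88% of all windows, 5.89% of those of genes called lower and 11.2% of those that fell at least 8-fold (24 of 214). The G-box CACGTG, bound by bZIP and bHLH factors, was found in 7.99% of all windows, 12.8% of those of genes called higher and 18.7% of those that rose at least 8-fold (74 of 396). A match is a description of letters in a window and not a measured binding site. P1BS and the G-box read the same on both strands, and P1BS cannot share its ATAT core with an evening element, since the bases flanking that core differ.

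Phosphate transport genes mostly rose. Of 24 tested members (28 in the list), 15 were called higher, and the list median was 1.54. PHT1;1 (AT5G43350, chromosome 5, 17399769 to 17402158, minus strand), the main root uptake transporter, stood at 36.1, 37.8 and 39.0 CPM in the P+ libraries and 84.3, 78.5 and 91.1 CPM in the P- libraries and rose by 1.17 ± 0.066, with an adjusted p of 1.32e-09 in edgeR's test and no overlap. PHT1;2 stood at 0.208, 0.0487 and 0.493 CPM in P+ and 6.89, 6.0 and 4.88 CPM in P- and PHT1;7 at 0, 0.292 and 0.0896 CPM in P+ and 3.13, 3.44 and 3.20 CPM in P-. Both were near the limit of detection in P+ and above it in every P- library, with changes of 4.50 ± 0.32 and 4.59 ± 0.51. PHT1;1, PHT1;2 and PHT1;3 are near-identical copies, so the split of reads among them is uncertain. PHT1;5, a source-to-sink transporter, rose by 3.38 ± 0.20, PHT1;9 by 1.76 ± 0.43 and PHF1, which lets PHT1 proteins leave the endoplasmic reticulum, by 1.79 ± 0.085. PHO1;H10, a PHO1 relative, stood at 1.2, 0.877 and 1.39 CPM in P+ and 25.7, 18.9 and 25.5 CPM in P-, without overlap, and rose by 4.33 ± 0.21. PHO1 and PHO1;H1, both of which load phosphate into the xylem, rose by 1.07 ± 0.11 and 1.71 ± 0.12. Of organellar carriers, the plastid transporter gene PHT2;1 rose by 1.37 ± 0.061, the mitochondrial PHT3;2 by 3.56 ± 0.36 and the thylakoid PHT4;1 by 2.04 ± 0.072. AT4G22990, listed with the vacuolar carriers, differed by -0.93 ± 0.11 and was not called.

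Genes of phosphatases and ribonucleases had the highest median of the 5 phosphate lists. Of 18 tested, 14 were called higher, with a median of 2.44, and their summed level went from 534 to 538 CPM in the P+ libraries to 1699 to 1806 CPM in the P- libraries. PAP5 (AT1G52940, chromosome 1, 19716402 to 19723725, plus strand), a purple acid phosphatase gene, was not detected in P+ and stood at 5.17, 2.75 and 4.21 CPM in P-, at least 83.6-fold higher against a floor of 3 counts summed over the P+ group. PS2 (AT1G73010, chromosome 1, 27464528 to 27466348, minus strand), a phosphatase gene, stood at 13.8, 18.0 and 15.5 CPM in P+ and 439, 493 and 438 CPM in P-. Every P- library lay far above every P+ library, and the change was 4.86 ± 0.11 with an adjusted p of 6.79e-14 in edgeR's test. Its relative PEPC1 (AT1G17710), a phosphoethanolamine and phosphocholine phosphatase gene, stood at 3.07, 3.70 and 4.25 CPM in P+ and 152, 173 and 156 CPM in P- and rose by 5.44 ± 0.12, again without overlap. Purple acid phosphatases on the root surface or secreted by roots rose too, PAP10 by 1.83 ± 0.058 and PAP12 by 1.21 ± 0.059. PAP14 rose by 4.64 ± 0.26, PAP22 by 3.05 ± 0.17 and PAP24 by 4.89 ± 0.30. The secreted ribonuclease gene RNS1 rose by 3.84 ± 0.18, while the vacuolar RNS2 differed by 0.40 ± 0.11 and PAP26, the main vacuolar and secreted acid phosphatase, by -0.02 ± 0.052, and neither was called.

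Genes of phospholipid removal and glycolipid synthesis mostly rose. Of 20 tested, 14 were called higher (15 without P- replicate 2), and the median was 1.53. GDPD6 (AT5G08030, chromosome 5, 2575025 to 2576819, minus strand), which splits glycerophosphodiesters left by phospholipid breakdown, stood at 0.0521, 0.390 and 0.0448 CPM in the P+ libraries and 26.3, 28.2 and 27.9 CPM in the P- libraries. It was close to undetected in P+ and detected at like levels in every P- library, a change of 7.36 ± 0.31. NPC4, a phospholipase C gene, stood at 1.56, 1.85 and 1.79 CPM in P+ and 25.4, 23.0 and 26.9 CPM in P- and rose by 3.85 ± 0.13. PLDP2, also named phospholipase D zeta 2, stood at 12.4, 9.60 and 9.72 CPM in P+ and 84.7, 56.1 and 87.9 CPM in P- and rose by 2.86 ± 0.15, with P- replicate 2 the lowest of its group. Of the galactolipid synthases, MGD2 rose by 1.89 ± 0.073 and DGD1 by 2.10 ± 0.096, whereas MGD1, which serves thylakoids under full supply, differed by -0.78 ± 0.054 and DGD2 by 0.42 ± 0.090, neither called. The sulfolipid synthases SQD1 and SQD2 rose by 2.03 ± 0.048 and 2.12 ± 0.070. The phosphatidate phosphatase gene PAH1 rose by 1.04 ± 0.13.

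Enzymes that bypass steps needing phosphate or adenylates followed, with 13 of 22 tested called higher, 1 called lower and a median of 1.18. NDA1 (AT1G07180, chromosome 1, 2204104 to 2207099, plus strand), a mitochondrial NADH dehydrogenase that pumps no protons, stood at 1.04, 1.22 and 1.70 CPM in the P+ libraries and 153, 174 and 159.8 CPM in the P- libraries. The P- libraries lay close together and far above the P+ libraries, a change of 6.92 ± 0.12 with an adjusted p of 1.30e-14 in edgeR's test. PPCK2, the kinase of phosphoenolpyruvate carboxylase, stood at 1.98, 1.41 and 1.75 CPM in P+ and 14.2, 15.6 and 14.5 CPM in P- and rose by 3.1 ± 0.16, its relative PPCK1 rose by 1.78 ± 0.064 and the carboxylase gene PPC1 by 1.63 ± 0.075. NDB2 rose by 2.71 ± 0.093 and the alternative oxidase gene AOX1A by 1.59 ± 0.073. The sucrose synthase gene SUS3 rose by 1.63 ± 0.12 and the UDP-glucose pyrophosphorylase gene UGP1 by 1.24 ± 0.048. AVP1, the vacuolar pyrophosphatase, was the member called lower, at -1.04 ± 0.055, and this call was lost without P- replicate 2, at -0.94.

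**Figure D2:**
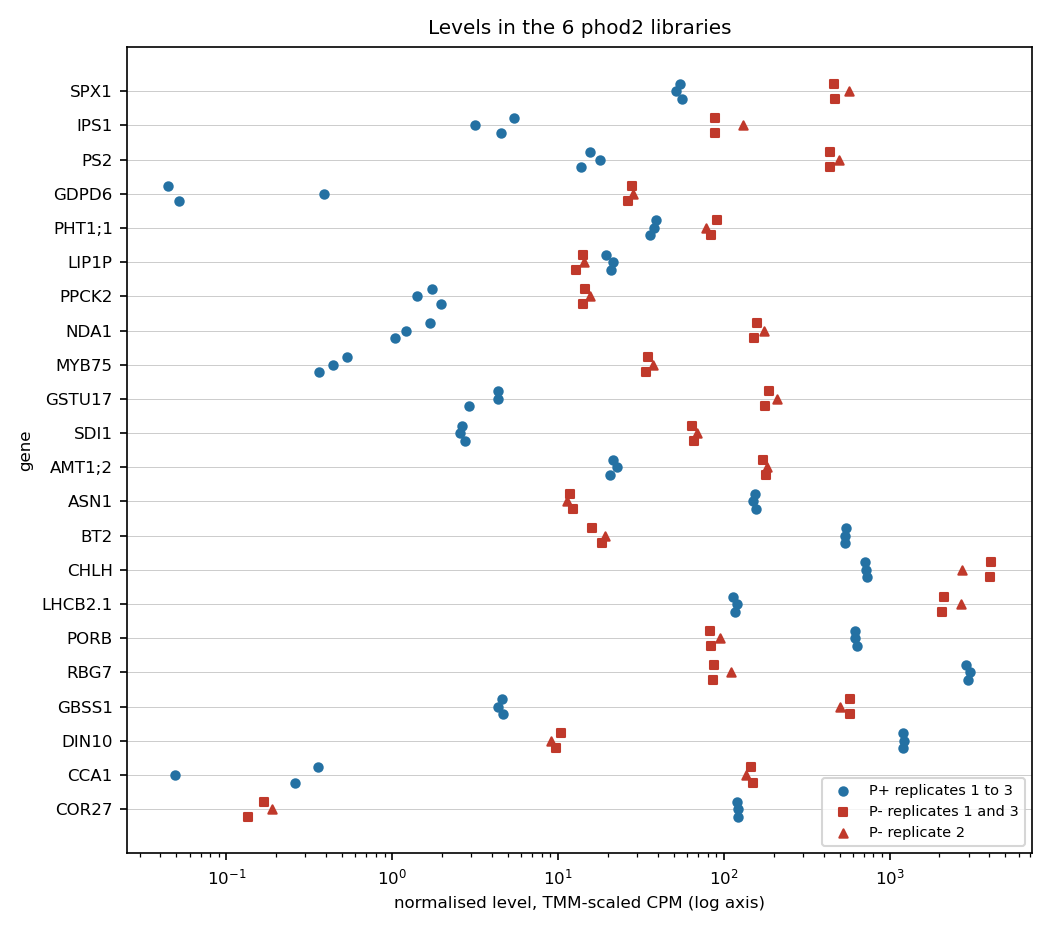
Normalised level of 22 named genes (y axis, 1 row per gene) in each of the 6 phod2 libraries, as TMM-scaled CPM on a log axis (x axis), with P+ replicates as blue circles, P- replicates 1 and 3 as red squares and P- replicate 2 as red triangles. SPX1, GDPD6, NDA1 and MYB75 stand far higher in every P- library, BT2, ASN1, DIN10 and COR27 far lower, and the triangle lies apart for IPS1 and CHLH.

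Flavonoid and anthocyanin genes rose nearly as a block. Of 29 tested, 25 were called higher (26 without P- replicate 2), with a median of 4.09, and their summed level was 515 to 521 CPM in P+ and 5004 to 5595 CPM in P-. MYB75 (AT1G56650, chromosome 1, 21233555 to 21235292, minus strand), the transcription factor that activates anthocyanin genes, stood at 0.365, 0.439 and 0.537 CPM in the P+ libraries and 34.1, 37.5 and 34.8 CPM in the P- libraries. The groups were far apart, and the change was 6.28 ± 0.19 with an adjusted p of 1.42e-12 in edgeR's test. The flavanone hydroxylase gene F3H stood at 0.104, 0.0487 and 0.179 CPM in P+ and 11.6, 19.1 and 11.6 CPM in P-, with P- replicate 2 well above the other P- libraries, and rose by 6.87 ± 0.37. CHS, which makes the first flavonoid intermediate, rose from 81.5 ± 1.30 to 1484 ± 268 CPM (SD), a change of 4.19 ± 0.10. The entry enzymes of phenylpropanoid synthesis rose as well, PAL1 by 2.72 ± 0.067 and C4H by 2.4 ± 0.066, while the flavonoid hydroxylase gene F3'H rose by 4.83 ± 0.10 and the bHLH partner gene TT8 by 4.15 ± 0.17. The bHLH gene GL3 differed by 0.99 ± 0.20, its WD40 partner TTG1 by -0.69 ± 0.070 and the flavonol regulator MYB111 by 0.80 ± 0.15. None of these was called, but GL3 was called without P- replicate 2.

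Among genes of conjugation and of sulfur metabolism, most calls were rises. Of 45 glutathione transferase genes, 21 were called higher and 2 lower, and of 55 UDP-glycosyltransferase genes 24 and 5, beside medians of 0.76 and 0.69. Without P- replicate 2 these counts were 19 and 2, and 25 and 4. GSTU17 stood at 2.92, 4.34 and 4.34 CPM in the P+ libraries and 178, 210.1 and 187 CPM in the P- libraries and rose by 5.62 ± 0.12, without overlap. TT19, which is needed for anthocyanin to reach the vacuole, rose by 4.57 ± 0.13. UGT91A1 stood at 0.0521, 0.0487 and 0.134 CPM in P+ and 11.4, 10.9 and 10.3 CPM in P- and rose by 6.97 ± 0.25, from near the limit of detection to a clear signal in every P- library. Of 24 sulfate starvation and assimilation genes, 14 were called higher, with a median of 1.74. LSU2, of a family induced by sulfur shortage, stood at 4.95, 4.92 and 3.72 CPM in P+ and 100.1, 173 and 103 CPM in P-. P- replicate 2 was again the highest, the change was 4.79 ± 0.22, and its paralogs LSU1 and LSU3 share sequence with it, so single values are uncertain. The sulfur reductase genes APR2 and APR3 rose by 3.59 ± 0.12 and 2.51 ± 0.062, the glutathione-degrading GGCT2;1 by 3.34 ± 0.13 and the phloem sulfate transporter gene SULTR1;3 by 2.66 ± 0.16, whereas the root uptake transporter SULTR1;1 differed by -0.49 ± 0.28 and was not called. Of 18 glucosinolate genes, 10 were called higher and 1 lower, with MYB29, a regulator of the aliphatic branch, at 2.68 ± 0.11. Without P- replicate 2, 11 were called higher and the lower call was lost.

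Iron homeostasis genes were split, with 9 of 36 tested called higher, 7 lower (8 without P- replicate 2) and a median of -0.0028. The iron-deficiency regulators BHLH100 and BHLH101 fell. BHLH100 stood at 3.91, 3.60 and 3.54 CPM in the P+ libraries and 0.181, 0.125 and 0.449 CPM in the P- libraries, near the limit of detection in every P- library, a change of -3.84 ± 0.34, and BHLH101 fell by 2.68 ± 0.42 (log2 change -3.62 without P- replicate 2). The ferric reductase gene FRO3 fell by 1.75 ± 0.087. The nicotianamine synthase genes NAS1, NAS2 and NAS3 rose by 1.38 ± 0.071, 2.17 ± 0.072 and 2.68 ± 0.17, the vacuolar iron exporter gene NRAMP4 by 1.93 ± 0.072 and the ferritin gene FER2 by 1.92 ± 0.17, while the ferritin gene FER3 fell by 1.07 ± 0.062 and FER1 differed by 0.47 ± 0.090, which was not called. IRT1, the root iron importer, stood at 19.1, 20.6 and 21.5 CPM in P+ and 23.8, 27.8 and 24.1 CPM in P-, and FRO2, which reduces iron for it, went from 16.4 ± 1.34 to 20 ± 4.49 CPM (SD). The groups overlapped for FRO2 and lay close together without overlap for IRT1, with differences of 0.30 ± 0.14 and 0.30 ± 0.080, neither called.

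Of 34 tested nitrogen uptake and assimilation genes, 5 were called higher and 6 lower (32.4% called), with a median of -0.14. Of all genes tested, 14.1% were called higher and 10.3% lower, so the count of rises was near the share over all genes. BT2 (AT3G48360, chromosome 3, 17907767 to 17910738, minus strand), a scaffold protein that represses nitrogen use, stood at 541, 541 and 543 CPM in the P+ libraries and 18.4, 19.4 and 16.1 CPM in the P- libraries. Every P- library lay far below every P+ library, and the change was -4.92 ± 0.075 with an adjusted p of 3.99e-15 in edgeR's test. ASN1 (AT3G47340, chromosome 3, 17437840 to 17441431, minus strand), an asparagine synthetase gene that is high in darkness, stood at 156, 149.8 and 154 CPM in P+ and 12.3, 11.3 and 11.8 CPM in P- and fell by 3.69 ± 0.071. AMT1;2 (AT1G64780, chromosome 1, 24060640 to 24062804, minus strand), a root ammonium transporter gene, stood at 20.5, 22.6 and 21.5 CPM in P+ and 179, 182 and 173 CPM in P- and rose by 3.05 ± 0.069, without overlap. The glutamate dehydrogenase genes GDH1 and GDH2 fell, at -1.52 ± 0.070 and -1.47 ± 0.063. HHO1 and HHO2, repressors that link nitrate and phosphate signals, rose by 1.46 ± 0.14 and 1.25 ± 0.059, and the nitrate uptake gene NRT2.1 differed by -0.33 ± 0.15 and was not called.

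Photosystem and antenna genes encoded in the nucleus rose in part. Of 46 tested, 12 were called, all of them higher, and the median was 0.59 (0.45 without P- replicate 2). The called share was 26.1%, against 24.4% of all genes tested, of which 14.1% were higher and 10.3% lower. Their summed level was 61260 to 62650 CPM in P+ and 81600 to 112700 CPM in P-. Of the antenna genes, LHCB1.1 and LHCB2.1 showed large changes in level, with 265, 274 and 268 CPM in P+ and 4263, 5501 and 4227 CPM in P- for LHCB1.1 and 118, 120.2 and 114 CPM in P+ and 2067, 2703 and 2123 CPM in P- for LHCB2.1. P- replicate 2 was the highest for both, the changes were 4.12 ± 0.092 and 4.29 ± 0.099, and both have near-identical paralogs among which reads may be split. Of 20 genes of chlorophyll synthesis and breakdown, 5 were called higher and 3 lower (40% called). CHLH (AT5G13630, chromosome 5, 4387307 to 4392429, minus strand), the largest subunit of magnesium chelatase, stood at 734, 721 and 709.7 CPM in P+ and 4063, 2717 and 4085 CPM in P-, with P- replicate 2 the lowest of its group but still above all P+ libraries, and rose by 2.33 ± 0.12. GUN4, an activator of the chelatase, rose by 4.12 ± 0.35, and CAO, which makes chlorophyll b, stood at 32.2, 28.6 and 27.2 CPM in P+ and 300.2, 274 and 297 CPM in P- and rose by 3.31 ± 0.072. PORB, a protochlorophyllide reductase gene, stood at 638, 621 and 619 CPM in P+ and 83.4, 95.1 and 82.9 CPM in P- and fell by 2.85 ± 0.062, and NYC1, which starts chlorophyll b breakdown, fell by 2.06 ± 0.054.

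The clock genes held the largest list medians in both directions. Of 14 morning-phased genes, 10 were called higher and 1 lower, with a median of 5.03, and of 13 evening-phased genes 11 were called lower and 1 higher, with a median of -4.38. CCA1 (AT2G46830, chromosome 2, 19245591 to 19248915, plus strand), a MYB factor of the morning loop, stood at 0.260, 0.0487 and 0.358 CPM in the P+ libraries and 150.2, 136 and 146 CPM in the P- libraries, and its partner LHY at 0.365, 0.877 and 0.941 CPM in P+ and 195, 168 and 204 CPM in P-. Both were close to undetected in P+ and high in every P- library, and the changes were 9.28 ± 0.24 and 7.99 ± 0.19, with an adjusted p of 2.47e-13 for CCA1 in edgeR's test. LNK1, a coactivator of the same loop, rose by 7.44 ± 0.17 and PRR9 by 7.61 ± 0.29, while the MYB gene RVE2 was the member called lower, at -3.29 ± 0.092. Of the evening genes that fell, TOC1 changed by -3.21 ± 0.081, PRR5 by -5.13 ± 0.16, ELF4 by -4.38 ± 0.13 and the blue-light receptor gene FKF1 by -6.84 ± 0.22. COR27 (AT5G42900, chromosome 5, 17197641 to 17199910, minus strand), an evening-phased regulator, stood at 122, 122 and 120.5 CPM in P+ and 0.136, 0.187 and 0.168 CPM in P-, near the limit of detection in all P- libraries, and fell by 9.50 ± 0.11. GI, also evening-phased, was the member called higher, at 2.54 ± 0.16. In KC the same lists held 10 higher and 1 lower, and 1 higher and 11 lower. The labels give no harvest time, so that the condition cannot be told apart from the hour of harvest for these genes and for others with a daily rhythm.

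Promoter windows of 6 of the 11 evening-phased genes that fell held the evening element (54.5%), and those of 5 of the 10 morning-phased genes that rose held the G-box. These counts stand beside 2.88% and 7.99% over all genes tested.

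Genes that answer to sugar and darkness were called in both directions. Of 16 carbon starvation and autophagy genes, 6 were called lower (7 without P- replicate 2) and 2 higher, and their summed level was 1932 to 1953 CPM in P+ and 309 to 419 CPM in P-. DIN10, a dark-inducible raffinose synthase gene, stood at 1211, 1214 and 1211 CPM in the P+ libraries and 9.70, 9.06 and 10.5 CPM in the P- libraries and fell by 6.96 ± 0.070. DIN1, another dark-inducible gene, stood at 273, 276 and 280.3 CPM in P+ and 2.36, 2.94 and 2.02 CPM in P- and fell by 6.83 ± 0.10, again without overlap. DRMH1 (AT2G33830, chromosome 2, 14308754 to 14310608, minus strand), of the dormancy-associated family, stood at 805, 799 and 812 CPM in P+ and 0.363, 0.50 and 0.337 CPM in P-, the fall with the largest fold among genes named here, 2012-fold. Starch and sugar genes were split, 6 higher and 7 lower of 17. The starch-degrading genes SEX1, AMY3, DPE1 and ISA3 fell, with changes of -2.57 ± 0.16, -2.30 ± 0.13, -3.04 ± 0.073 and -2.32 ± 0.084. The granule-bound starch synthase gene GBSS1 stood at 4.63, 4.34 and 4.57 CPM in P+ and 581, 504 and 581 CPM in P- and rose by 6.94 ± 0.12, and the glucose-phosphate carrier gene GPT2 rose by 5.07 ± 0.13. SWEET15, a sucrose exporter that is high in senescence, stood at 1.15, 1.36 and 1.70 CPM in P+ and 406, 418 and 409 CPM in P- and rose by 8.18 ± 0.098, and 7 of 12 SWEET genes were called higher and 1 lower. Many of these genes also follow the day, and the same limit holds.

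Among stress and hormone lists, 12 of 14 heat shock and folding genes were called higher and 1 lower, with a median of 2.89. The small heat shock protein gene HSP17.6II rose by 6.38 ± 0.39, the plastid unfoldase gene CLPB3 by 3.02 ± 0.11 and HSP70 by 3.60 ± 0.071, while the heat shock factor gene HSFA7A fell by 2.19 ± 0.15. Of 21 abscisic acid and cold genes, 13 were called higher and 3 lower, RD29B rising by 2.85 ± 0.081 and RAB18 by 2.38 ± 0.088, and COR15A and COR15B, which protect plastid membranes in the cold, falling with changes of -1.5 ± 0.093 and -5.20 ± 0.16. The early light-induced gene ELIP2 stood at 0.573, 0.682 and 0.314 CPM in P+ and 185, 262 and 184 CPM in P-, without overlap, and rose by 8.65 ± 0.21. Of 9 senescence genes, 4 were called higher and 1 lower (55.6% called), with NAP, a NAC factor, at 3.60 ± 0.14 and SAG113 at 4.03 ± 0.093. Of 15 jasmonate and wounding genes, 5 were called higher and 2 lower (46.7% called). VSP2, a vegetative storage protein gene, stood at 35.4, 37.7 and 41.3 CPM in P+ and 297, 419 and 301 CPM in P- and rose by 3.15 ± 0.12, and JAZ7, a jasmonate repressor, fell by 2.45 ± 0.30. The salicylate marker gene PR1 and SARD1, a regulator of salicylate synthesis, fell with changes of -2.91 ± 0.35 and -1.52 ± 0.22. These were the calls among 14 salicylate and defence genes, whose median was -0.33, and 1 further gene was called higher without P- replicate 2. The called share of this list was 14.3%, against 24.4% of all genes tested.

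Genes of roots and cell walls had mixed calls. Of 14 root hair genes, 9 were called higher (11 without P- replicate 2), with a median of 1.32 and a summed level of 76.1 to 78.3 CPM in P+ and 117 to 128 CPM in P-. RHD6 and RSL2, bHLH factors that start hair growth, rose by 1.79 ± 0.21 and 1.73 ± 0.33, and the expansin gene EXP18 by 2.02 ± 0.21. Of 17 suberin genes, 4 were called higher (5 without that library). The called share was 23.5%, against 24.4% of all genes tested, of which 14.1% were higher and 10.3% lower. The calls included the fatty acid elongase gene KCS2 at 3.48 ± 0.19, the suberin regulator MYB41 at 2.74 ± 0.41 and the feruloyl transferase gene ASFT at 2.14 ± 0.077. The share of root cells was not measured, and these 2 lists are also markers of root tissue. Of 61 class III peroxidase genes, 18 were called higher and 3 lower (17 and 4 without it), PER52 rising by 4.25 ± 0.34. Of 29 xyloglucan endotransglucosylase genes, 10 were called lower and 6 higher, with XTH25 at -3.52 ± 0.55 and XTH19 at 2.98 ± 0.089. The value of XTH25 rests on few counts in P-, and it was -5.75 without P- replicate 2. Of 22 expansins, 5 were called higher and 4 lower (40.9% called). Of 73 extensin and arabinogalactan protein genes, 21 were called higher and 7 lower (38.4% called), and 23 and 9 without P- replicate 2. All 7 tested seed storage and late embryogenesis genes, of 12 in the list, rose, and their summed level was 11.6 to 11.8 CPM in P+ and 60.4 to 70.5 CPM in P-, among them the cruciferin gene CRA1 at 2.51 ± 0.14, EM6 at 3.26 ± 0.23 and the oleosin gene OLEO1 at 2.92 ± 0.30. Members of this list that were not tested had too few counts, so the count is not one of all members. The count filter also takes a gene with enough counts in the P- group of phod2 alone, so a tested member may have entered through its rise. OLEO1 averaged 0.42 CPM in P+ of phod2, 0.51 and 0.43 CPM in P+ and P- of KC, and 3.33 CPM in P- of phod2.

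Of 189 cytosolic ribosomal protein genes, 29 were called higher, 15.3% beside 14.1% of all genes, with a median of 0.69. The count was 17 without P- replicate 2 and 47 without either of its P- partners. Of 16 cell cycle and replication genes, 2 were called higher, and 1 without that library. Core histones had 5 calls higher and 1 lower among 38, and 4 and 2 without it. Of 42 nuclear genes for organellar ribosomal proteins, 2 were called higher and 1 lower. The called shares of the cell cycle, histone and organellar lists were 12.5%, 15.8% and 7.14%, against 24.4% of all genes tested.

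Transcription factor genes, taken from the GO annotation of the table, were called in 33.9% of 1149 tested, 270 higher and 120 lower (272 and 116 without P- replicate 2), with a median of 0.21. Over all genes tested, 24.4% were called, 14.1% higher and 10.3% lower. COL7, a CONSTANS-like B-box gene, stood at 0.312, 0.0974 and 0.0896 CPM in the P+ libraries and 62.5, 62.7 and 63.5 CPM in the P- libraries and rose by 8.55 ± 0.19. COL9, of the same family, stood at 187, 175 and 181 CPM in P+ and 2.63, 2.69 and 2.86 CPM in P- and fell by 6.05 ± 0.093, and the groups overlapped for neither. The clock factor gene BOA and the zinc-finger gene TZF5 fell, at -4.25 ± 0.17 and -3.97 ± 0.18. The groups that follow are genes whose symbol begins with the name and a number, so members under other names are left out. ERF genes had 21 called higher and 9 lower of 58 (51.7%), MYB genes 21 and 2 of 62 (37.1%), and TCP genes 1 call higher among 17 (5.88%). WRKY genes had 13 and 7 of 57 (35.1%), NAC genes 13 and 2 of 45 (33.3%) and bHLH genes 18 and 9 of 74 (36.5%). Without P- replicate 2 the counts were 13 and 6 for WRKY, 12 and 2 for NAC, 21 and 1 for MYB and 17 and 10 for bHLH genes. Of 309 long noncoding RNA genes, 44 were called higher and 76 lower (41 and 70 without that library), which is 38.8% called. Of 44 small nucleolar RNA genes, 16 were called higher (36.4%).

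Some genes were counted in 1 condition alone. For 17 genes that rose no P+ library had a count, and for 9 that fell no P- library did. MIP1A, a B-box microprotein gene, stood at 7.48, 9.37 and 6.84 CPM in P-, at least 163-fold higher against the floor of 3 counts over the P+ group. PCR1 stood at 4.79, 4.87 and 4.66 CPM in P+ and was at least 89.0-fold lower in P-, and the cold regulator gene CBF1 was at least 27.6-fold lower.

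**Figure D3:**
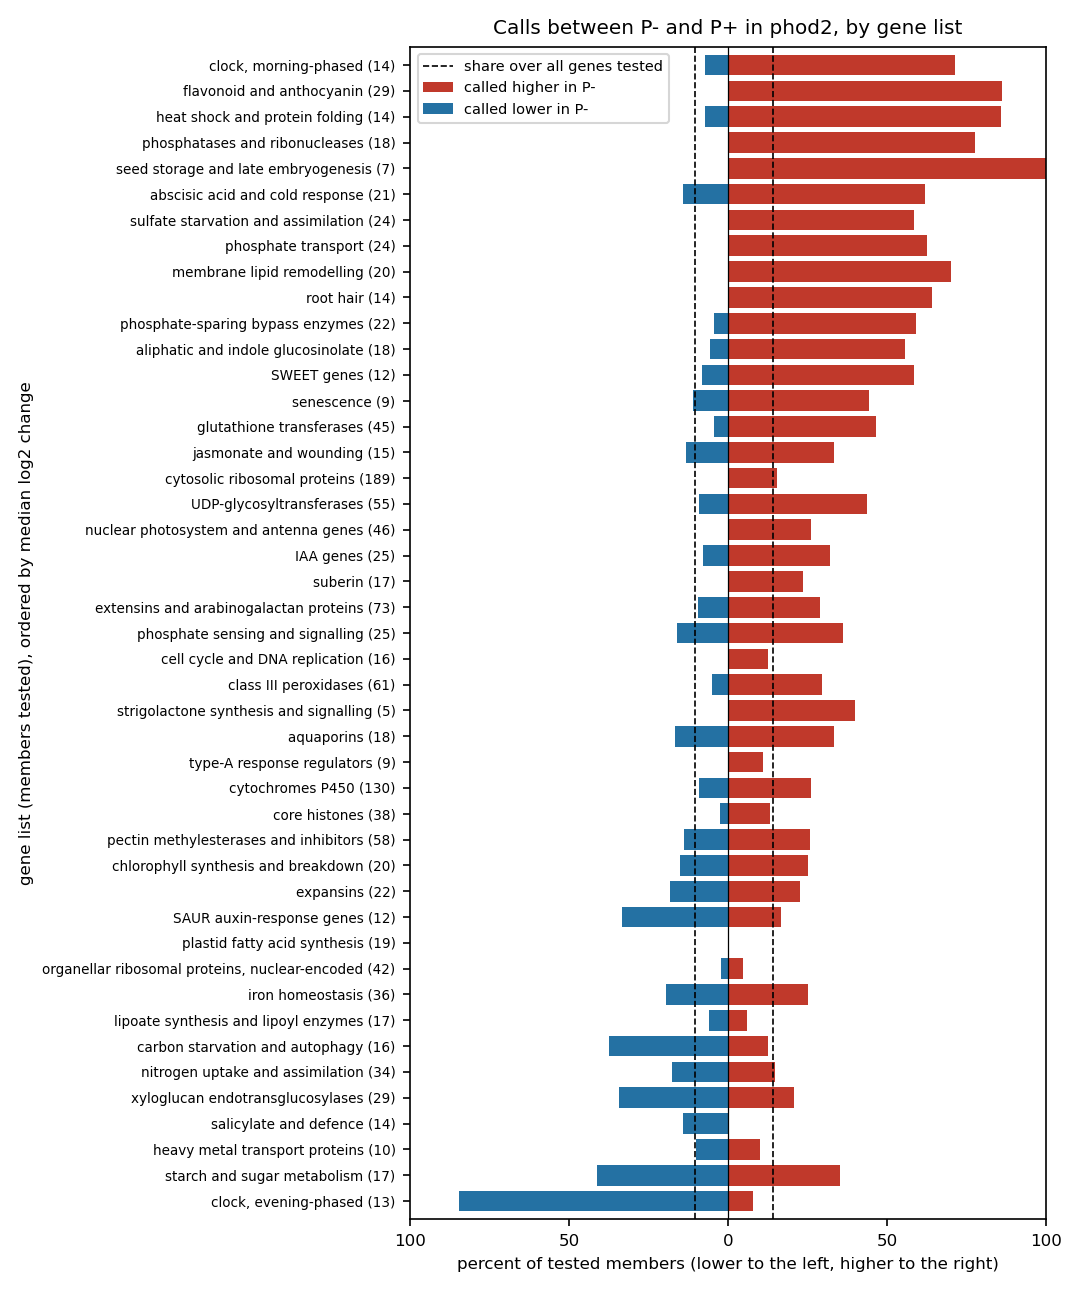
Percent of tested members of each gene list called higher (red, to the right) or lower (blue, to the left) in P-, ordered by the list's median log2 change, with the number tested in parentheses. Dashed lines mark the shares over all genes tested, 14.1% higher and 10.3% lower. Seed storage, heat shock, flavonoid, phosphatase and morning clock genes reach far past the right line, while evening clock genes reach past the left.

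Short and long genes differed in their median change, more with P- replicate 2 than without it. Among the decile of genes with the shortest exonic length, 42 to 891 bases, the median log2 change was 0.44, and it was 0.33 without the library. The calls there were 547 higher and 214 lower, and 470 and 220 without it. In the decile with the longest, 3187 to 16614 bases, the median was -0.36 and then -0.14, with 72 calls higher and 308 lower, and then 114 and 204. Against the mean of its partners the library itself stood at a median of 0.46 in the shortest decile and -0.66 in the longest. Leaving it out gave 4886 calls among 21087 genes tested, 23.2%, with 2928 higher (13.9%) and 1958 lower (9.29%), and 4558 genes were called in the same direction both ways. A further 544 were called only with the library and 328 only without it. Among the genes named above, the library was the highest of the P- group for SPX1, F3H and LSU2, with exonic lengths of 1206, 1508 and 823 bases, and the lowest for PLDP2 and CHLH, with 3520 and 4757 bases. Each of these 5 genes was still called without it, F3H at 6.64 and PLDP2 at 3.07.

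**Figure D4:**
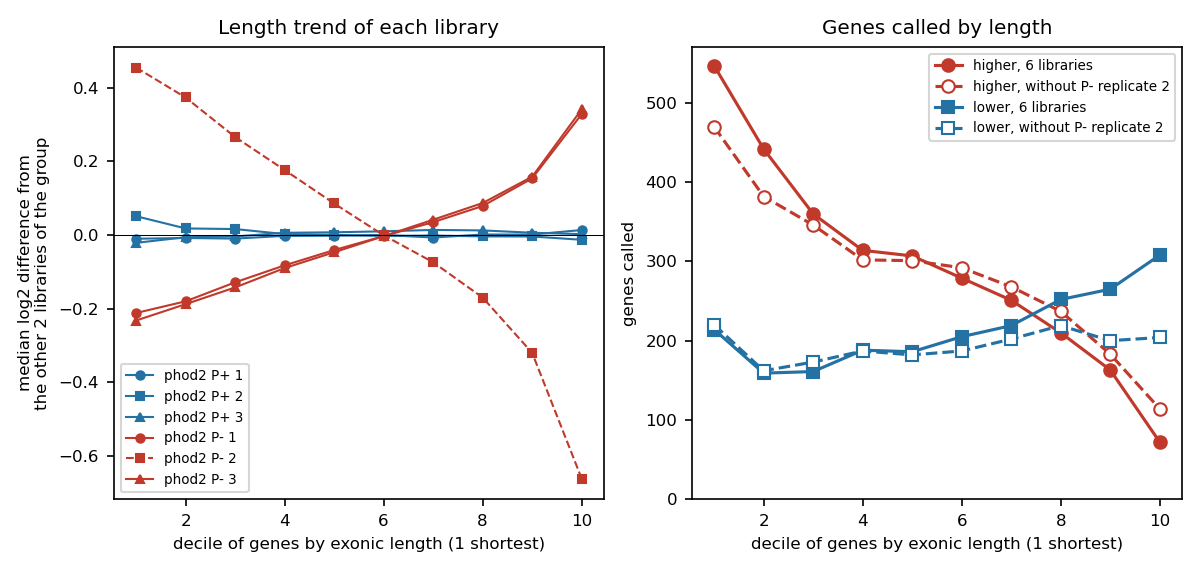
Left, the median log2 difference of each phod2 library from the other 2 of its group (y axis) by decile of exonic length, shortest to longest (x axis), which runs from 0.46 to -0.66 for P- replicate 2 (dashed). Right, the number of genes called higher (red) and lower (blue) in P- in each decile, with all 6 libraries (filled) and without P- replicate 2 (open).

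Most of the response in phod2 was also called in KC, where 4292 genes were called (20.5%), 3447 of them in the same direction and 17 in the opposite one. Whether a change differed between the genotypes was tested with the interaction term of the same edgeR fit, the response of phod2 less the response of KC. It was called for 643 genes (3.08%), 500 positive (2.39%) and 143 negative (0.685%). Of the 1638 genes called in phod2 and not in KC, the difference itself was called for 222. Without P- replicate 2 of phod2, 576 of the 643 were still called.

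Within the phosphate lists the called difference had both signs. It was positive for 2 and negative for 1 of 25 sensing genes, and for 2 and 1 of 24 transport genes. The counts were 5 and 2 of 18 phosphatase and ribonuclease genes, 2 and 1 of 20 lipid genes and 1 and 0 of 22 bypass genes. SPX1 rose less in phod2, from 54.0 ± 2.08 to 501 ± 57.2 CPM in phod2 and from 6.35 ± 0.476 to 135 ± 6.57 CPM in KC, with an interaction of -1.2 ± 0.12 and an adjusted p of 2.52e-05. PS2 likewise rose by 4.86 ± 0.11 in phod2 and 6.56 ± 0.14 in KC, an interaction of -1.71 ± 0.19, and in both cases the P+ level was higher in phod2. Other genes rose more in phod2. For PHT1;5 the level went from 0.626 ± 0.0499 to 6.63 ± 0.766 CPM in phod2 and from 0.374 ± 0.138 to 1.05 ± 0.0429 CPM in KC, an interaction of 1.95 ± 0.39. The same sign was called for PAP22 (1.75 ± 0.25), PAP24 (2.01 ± 0.60), RNS1 (1.41 ± 0.34), GDPD3 (2.19 ± 0.47), NPC4 (1.22 ± 0.20) and PPCK2 (1.62 ± 0.26). PHT1;1 was called in phod2 and not in KC, but the interaction, 0.48 ± 0.091, was not called, and that of LIP1P was -0.13 ± 0.099.

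Flavonoid genes rose in both genotypes, 25 and 24 called of 29, and the interaction was positive and called for 11. CHS went from 219.9 ± 5.62 to 778 ± 16.2 CPM in KC, and its interaction was 2.36 ± 0.13. That of F3H was 3.53 ± 0.67 and that of MYB12, a flavonol regulator, 1.63 ± 0.24. Over all genes tested, the interaction was called positive for 2.39% and negative for 0.685%. Of 61 peroxidase genes, 9 had a called positive and 2 a called negative interaction. Of the 7 seed storage genes tested, 6 had a positive one, under the limit of the count filter given above. CRA1 rose by 2.51 ± 0.14 in phod2 and was called lower in KC, at -1.44 ± 0.31, an interaction of 3.95 ± 0.33. ASN1 fell by 3.69 ± 0.071 in phod2 and differed by -0.70 ± 0.064 in KC, where it was not called, an interaction of -3.0 ± 0.094.

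Of 36 tested genes of the iron list, 7 had a called negative interaction and 0 a positive one. Over all genes tested, 0.685% were called negative and 2.39% positive. CYP82C4, a root enzyme of iron-binding coumarin synthesis, stood at 7.50, 7.26 and 7.08 CPM in the P+ libraries and 3.13, 3.12 and 3.81 CPM in the P- libraries in phod2, without overlap, and went from 0.369 ± 0.181 to 21.8 ± 1.87 CPM in KC, an interaction of -6.97 ± 0.24. IRT1 went from 3.08 ± 0.256 to 48.4 ± 2.31 CPM in KC and FRO2 from 1.84 ± 0.393 to 31.1 ± 0.208 CPM, against differences that were not called in phod2, with interactions of -3.67 ± 0.13 and -3.76 ± 0.23. NAS2 had -2.29 ± 0.11 and BHLH38, a regulator of IRT1 and FRO2, -2.19 ± 0.39. Both comparisons have P+ groups of their own, and the P+ columns of KC carry another name in the table, so that a difference in line cannot be told apart from one in phod2.

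**Figure D5:**
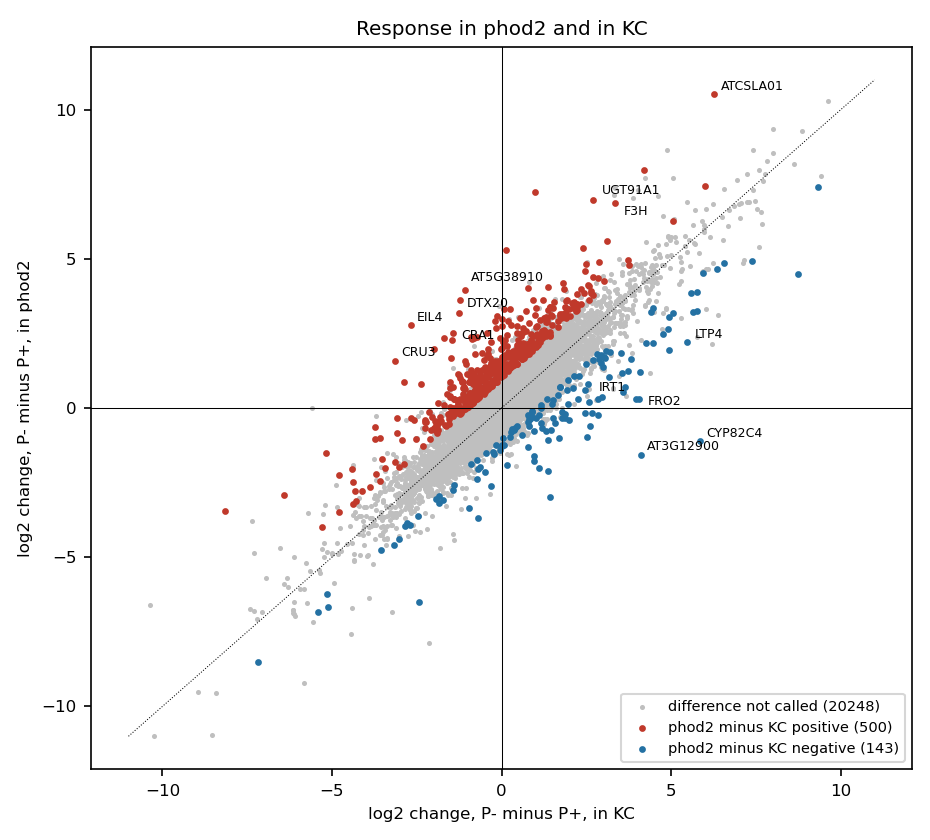
Log2 change between P- and P+ in phod2 (y axis) against that in KC (x axis), 1 point per gene tested, with the dotted line at equal change. The 500 genes with a called positive difference are red and the 143 with a negative one blue, among them CYP82C4, IRT1 and FRO2 at the right of the line.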

How the data were processed

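The deposited table gives, per the file headers, unnormalised counts of reads and FPKM for each gene in each library. Aligner, counting program and use of strand are not given in the sources used here, so antisense and overlapping genes cannot be told apart. The submitters' processing notes name the mouse build mm10, although identifiers and coordinates are those of Arabidopsis. Of the 32833 genes, 32548 matched RefSeq (TAIR10.1), with identical start and end for 99.95%.

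Counts were scaled by TMM, filtered with filterByExpr (smallest count 10) and fitted with edgeR 4.0.16 (R 4.3.3; quasi-likelihood, 4 group means over 12 libraries, Benjamini-Hochberg over 20891 genes). The common biological coefficient of variation was 8.47%. SE is the log2 change over the square root of F. Floors are 3 counts per group and cover counting error only. DESeq2 1.42.0 and limma 3.58.1 (also on log2 of FPKM + 1) served as alternatives, with other scalings, filters, libraries left out, a replicate block and a length trend removed. Same-numbered replicates were checked for pairing, which was weak at most and was left out of the main fit. The fit was also run on simulated counts with the same spread for every gene and no length trend. That run therefore does not bear on the length trend of P- replicate 2.

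Named genes were the largest changes by fold and by level among called genes, up to 3 members per list, the largest interactions, genes called in opposite directions in KC, genes with 0 counts in a group, transcription factors taken from GO because the table has no family column, and LIP1P, SPX1, IPS1, PHT1;1, PS2 and CCA1. Other list members are given by role. The 27 lists and 18 families, and the comparison itself, were chosen with earlier results of these data known.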

Additional observations from a re-analysis of the deposited data

Results flagged for a closer look

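For the following genes the change between P- and P+ differed between phod2 and KC, tested by edgeR's interaction term (response of phod2 less that of KC) and called by the limits used above. Positive differences were 4.27 ± 0.40 for UGT91A1, 4.26 ± 0.97 for ATCSLA01, a glucomannan synthase gene, 3.95 ± 0.33 for CRA1 and 3.53 ± 0.67 for F3H. ATCSLA01 had 2 counts over the P+ group of phod2 and stood at 59.0, 54.7 and 57.0 CPM in P-, so its fitted value depends on the prior count. Negative differences were -6.97 ± 0.24 for CYP82C4, -3.76 ± 0.23 for FRO2, -3.67 ± 0.13 for IRT1 and -3.25 ± 0.30 for LTP4, a lipid transfer protein gene that rose by 2.21 ± 0.14 in phod2 and 5.46 ± 0.21 in KC.

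Of the 17 genes called in opposite directions in phod2 and KC, CRA1 and CYP82C4 are given above. Others with large differences were EIL4, which rose in phod2 and fell in KC with a difference of 5.46 ± 1.04, AT5G38910 with 5.05 ± 0.48, the cruciferin gene CRU3 with 4.75 ± 1.26 and DTX20, a transporter gene, with 4.44 ± 1.04. AT3G12900 fell in phod2 and rose in KC, with a difference of -5.66 ± 0.71. EIL4, AT5G38910, CRU3, DTX20 and AT3G12900 had few counts in at least 1 group, and their fitted values depend on the prior count. Of the genes named throughout, SPX1 had a difference of -1.2 ± 0.12 and PS2 of -1.71 ± 0.19.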

How the results depend on the processing

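Of 161 named genes, 138 kept direction and call in every alternative run that tested them. Another 23 lost the call in at least 1, with no reversal. The 1 CPM filter tested 155 of the 161, and the 6 phod2 libraries alone and the replicate block 156 each. These runs followed the change in phod2, and the interaction calls of single genes were not followed through them. DESeq2 gave 5100 calls, upper-quartile scaling 5184, no filter 5512, a 1 CPM filter 4765, the 6 phod2 libraries alone 4907, voom with sample weights 4909 (weight 0.0749 for P- replicate 2) and a length trend removed 4872. A test against the 2-fold limit itself (glmTreat) gave 3302 calls, 1904 higher and 1398 lower, and 94 for the interaction. On log2 of FPKM + 1, limma gave 3370 calls, 1726 higher, and 354 for the interaction. Leaving out 1 library gave 4886 to 5370 calls, 2928 to 3076 higher, 1958 to 2299 lower, and 538 to 772 for the interaction. A replicate block gave 4923 calls, 2782 higher and 2141 lower, and 558 for the interaction. Deviations of same-numbered phod2 libraries correlated at 0.0252, 0.0471 and 0.0256, and those of differently numbered ones at -0.048 to 0.023. The same-numbered values were the highest, but all were small, so whether replicates pair was left undecided. Upper-quartile scaling moved the median of all genes to 0.10 and the share of higher calls from 57.7% to 64.4%. PCNA1 lost its call without P- replicate 2 or P+ replicate 2, and CAT3 and GDCH2 with the length trend removed. The count of ribosomal protein genes ranged from 10 with glmTreat to 51 with upper-quartile scaling. The causes were not tested. A P- group without counts allows up to 0.0537 CPM, which is 3 counts over the summed scaled sizes of its 3 libraries.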

Other observations

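Lists not described above were read from the GO annotation of the table after their values had been seen, and are given as counts beside 14.1% higher and 10.3% lower over all genes. Lignin biosynthesis had 16 of 34 tested genes called higher, chitin catabolism 9 of 18, and protein oligomerization 10 of 20. The toxin catabolism term, which holds many glutathione transferases, had 23 of 41 called higher (20 without P- replicate 2), and response to hydrogen peroxide 29 of 64. Among terms with falls, starch catabolism had 7 of 17 called lower, nitrate transport 6 of 19, recognition of pollen 12 of 37 (11 without that library) and brassinosteroid signalling 16 of 70 (13 without it).

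The share of genes called varied with level. Of 1668 genes with a mean below 1 CPM, 40.6% were called, against 35.2% from 1 to 5 CPM, 19.5% from 5 to 20, 19.3% from 20 to 100 and 25.4% above. The count filter admits a gene that has enough counts in a single group. The filter itself can thus raise the called share in the lowest class. Of the genes with a called interaction, 306 were positive and higher in phod2, 45 negative and lower, 38 negative and higher, 26 positive and lower, and 228 were not called in phod2.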
